A study of Mus musculus with 2 samples.

Results

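Among lung mesenchymal cells of bleomycin- and saline-treated mice, a small set carried the messenger RNA of Cxcl9, a chemokine that interferon-gamma switches on. Levels were counted as UMIs (unique molecular identifiers), which stand for single captured transcript molecules. Cells were kept where they showed 500 genes or more and took no more than 10% of their UMIs from mitochondrial genes. The set was then defined as cells with at least 2 UMIs of Cxcl9 and 0 UMIs of Ptprc, Pecam1 and Epcam, the genes of a leukocyte, an endothelial and an epithelial surface protein. It held 262 of 18351 cells, of which 155 came from the bleomycin library and 107 from the saline library. They were described against the 17889 filtered cells with 0 UMIs of Cxcl9, called Cxcl9-0 cells here, of which 9705 were in the bleomycin and 8184 in the saline library. The level of Cxcl9 chose the cells, so it is given as a description only.

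The source animals were Lepr-CreERT2;Rosa26-tdtomato mice, 8 to 10 weeks old, given bleomycin, a drug that injures the lung and leads to scarring, or saline, with 1 library for each. The leptin receptor gene Lepr drives a Cre recombinase that works once tamoxifen is given and turns on a red fluorescent protein permanently, so the sorted cells descend from cells that had used Lepr and need not use it still. Digested lungs were sorted for live red cells negative for the leukocyte protein CD45, the epithelial protein EpCAM and the endothelial protein CD31, per the labels' protocols. The number of mice in each library, the dose, the day of collection and the tamoxifen schedule are not stated in the labels. With 1 library per treatment there is no replicate, so no test is given, and bleomycin and the library cannot be told apart.

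CXCL9 and CXCL10 are secreted ligands of CXCR3, a receptor on activated T cells and natural killer cells, and draw those cells into inflamed tissue. Interferon-gamma binds its receptor and, by way of the JAK kinases, acts on genes with GAS elements in their promoters. Among the genes it induces are the guanylate-binding proteins (GBPs) and the immunity-related GTPases (IRGs), which attack the vacuoles of intracellular pathogens, and the genes that load and display peptides on MHC proteins. Type I interferons bind another receptor and act mainly on ISRE elements, with Isg15, Rsad2 and the Ifit genes as typical targets.

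The promoters of 6 genes are shown because they differ in these elements. Each window runs from 250 bases before the RefSeq transcript start to 50 bases after it (GRCm38.p6), is printed 5′ to 3′ on the gene's own strand, and has matches to 3 motifs in capitals. The motifs were GAS (TTC, any 3 bases, GAA), ISRE (GAAA, any 2 bases, GAAA) and kappaB (GGGA, any base, TT, any base, CC, bound by NF-kB), searched on both strands, and no 2 matches overlapped in the windows shown. Cxcl9 (chr5:92328030-92328329, minus strand) and Cxcl10 (chr5:92348840-92349139, minus strand) are neighbours, Gbp2 (chr3:142620413-142620712, plus) and Gbp5 (chr3:142496684-142496983, plus) lie in 1 GBP cluster, and Irf1 is at chr11:53769764-53770063 (plus) and Rsad2 at chr12:26456403-26456702 (minus).
Cxcl9: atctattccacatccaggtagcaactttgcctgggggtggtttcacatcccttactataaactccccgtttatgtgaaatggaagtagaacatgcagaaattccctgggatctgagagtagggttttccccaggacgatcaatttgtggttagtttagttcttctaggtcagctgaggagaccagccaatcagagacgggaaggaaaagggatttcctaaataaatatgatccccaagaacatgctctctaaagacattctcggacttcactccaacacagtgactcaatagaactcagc
Cxcl10: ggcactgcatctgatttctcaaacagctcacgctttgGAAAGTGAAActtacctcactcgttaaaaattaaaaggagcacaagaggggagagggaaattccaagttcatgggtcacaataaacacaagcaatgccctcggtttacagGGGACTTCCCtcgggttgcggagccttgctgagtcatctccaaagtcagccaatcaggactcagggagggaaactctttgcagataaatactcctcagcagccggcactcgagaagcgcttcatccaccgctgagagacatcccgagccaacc
Gbp2: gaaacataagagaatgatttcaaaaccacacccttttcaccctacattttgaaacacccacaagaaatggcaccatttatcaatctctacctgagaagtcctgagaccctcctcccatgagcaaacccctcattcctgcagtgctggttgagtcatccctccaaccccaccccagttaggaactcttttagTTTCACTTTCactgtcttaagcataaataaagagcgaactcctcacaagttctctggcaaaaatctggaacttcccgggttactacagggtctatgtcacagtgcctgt
Gbp5: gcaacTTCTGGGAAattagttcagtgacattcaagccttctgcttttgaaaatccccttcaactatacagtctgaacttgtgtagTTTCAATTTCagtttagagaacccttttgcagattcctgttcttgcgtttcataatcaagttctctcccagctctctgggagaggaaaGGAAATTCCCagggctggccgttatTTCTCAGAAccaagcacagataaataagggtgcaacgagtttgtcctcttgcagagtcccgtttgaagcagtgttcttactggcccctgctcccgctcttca
Irf1: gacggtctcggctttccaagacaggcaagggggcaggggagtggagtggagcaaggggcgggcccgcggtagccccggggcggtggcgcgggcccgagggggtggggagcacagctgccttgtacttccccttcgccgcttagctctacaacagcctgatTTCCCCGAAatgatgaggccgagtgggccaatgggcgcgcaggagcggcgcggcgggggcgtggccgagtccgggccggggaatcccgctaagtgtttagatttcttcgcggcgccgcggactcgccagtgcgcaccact
Rsad2: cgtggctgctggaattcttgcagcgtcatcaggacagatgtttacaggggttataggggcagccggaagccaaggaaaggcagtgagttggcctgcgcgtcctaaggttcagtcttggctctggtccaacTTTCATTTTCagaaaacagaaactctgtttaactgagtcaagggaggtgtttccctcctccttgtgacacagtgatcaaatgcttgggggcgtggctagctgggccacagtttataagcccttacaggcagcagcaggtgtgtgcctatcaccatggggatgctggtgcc
The Cxcl9 window held none of the 3 motifs in these letters. The Cxcl10 window held an ISRE from -213 to -204 relative to the start and a kappaB match from -103 to -94. An ISRE stood at -59 to -50 in Gbp2, at -165 to -156 in Gbp5 and at -120 to -111 in Rsad2. Gbp5 also held 2 GAS matches and 1 kappaB match, and Irf1 had 1 GAS match at -90 to -82. A further RefSeq window of Irf1 (chr11:53770223-53770522) and the window of Ubd, both searched but not shown, held none of the 3 motifs. Of all 32851 RefSeq windows of this length, 8.3% held a GAS, 3.44% an ISRE and 1.2% a kappaB match. ISREs were in 5 of 6 windows of the GBP list, 7 of 8 of the IRG list, 12 of 24 of a list of type I interferon genes and 5 of 19 of the MHC class I list. GAS matches were in 2 of 6, 6 of 8, 4 of 24 and 2 of 19 windows of the same lists. These windows covered 5 of 11 listed GBPs, 8 of 11 IRGs, 20 of 27 type I genes and 17 of 18 class I genes. A match is a string of letters and not a bound site, and a window without one says nothing about the factor.

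The set was deeper sequenced than the cells around it. The median was 19498 UMIs in bleomycin members and 11613 in bleomycin Cxcl9-0 cells, and 10474 in saline members against 6747 in saline Cxcl9-0 cells. Levels are given as CPM, the UMIs of a gene summed over a pool of cells scaled to 1000000 UMIs of that pool, and brackets hold exact 95% intervals that cover counting error only. A gene is called higher or lower where the CPM differ at least 2-fold, the interval excludes 1 and 1 pool reaches 10 CPM. A gene under 10 CPM in Cxcl9-0 cells enters only through the members and can only be called higher, so counts over genes at 10 CPM in Cxcl9-0 cells are given as well. Of 25 barcodes found in both libraries, 0 belonged to a member. Fibrotic fibroblast-like cells numbered 2360 of 10001 in the bleomycin library and 7 of 8350 in the saline library.

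The share of cells in the set was 1.55% [1.32–1.81] in the bleomycin library and 1.28% [1.05–1.55] in the saline library. The order turned round at equal depth: with every cell thinned to 2000 UMIs, 0.429% [0.309–0.579] of 9801 bleomycin cells and 0.622% [0.464–0.818] of 8193 saline cells still held 2 Cxcl9 UMIs, and those intervals overlap. At least 1 Cxcl9 UMI was then in 0.969% of bleomycin and 1.1% of saline cells. Left out as shallower were 200 bleomycin and 157 saline cells, none of them members. Members held 91.2% of all Cxcl9 UMIs in the bleomycin library and 93.3% in the saline library. The median member had 5 Cxcl9 UMIs in the bleomycin and 7 in the saline library, with maxima of 203 and 172, and the 10 cells with most held 50.4% of the bleomycin and 44.4% of the saline members' Cxcl9 UMIs. The rule takes the cells with 2 or more Cxcl9 UMIs, so the members' share of those UMIs is set in large part by the rule. These values are a description only.

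As a guide to free RNA, 0 of 190 bleomycin and 0 of 113 saline cells of a cluster led by epithelial genes held any Cxcl9 UMI, which allows shares of up to 1.58% and 2.65% of such cells at median depths of 7434 and 5714 UMIs. Among smooth muscle-like cells the share was 0.38% (2 of 526, median depth 8148 UMIs) in the bleomycin and 0.798% (3 of 376, median depth 7374) in the saline library. Not all other clusters lay so low. In a cluster led by immunoglobulin genes, 3 of 70 bleomycin cells (4.29%, median depth 5656) and 0 of 19 saline cells held Cxcl9. In a cluster led by Gdf15 it was in 3 of 182 bleomycin and 0 of 12 saline cells. Among mesothelial-like cells it was in 0 of 117 bleomycin cells and 1 of 42 saline cells. The source of these UMIs was not tested. The cell gate itself removed little: 2 bleomycin cells with at least 2 Cxcl9 UMIs also held Ptprc, and 1 saline cell held Pecam1. Scrublet, a doublet caller, marked 0 bleomycin cells and 66 saline cells, so it did not work on the bleomycin library. It marked 1 member. The top 5% of doublet scores in either library took in 7 of 155 bleomycin and 2 of 107 saline members. No cell was removed on this ground.

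The label of the set as interferon-responding fibroblasts was checked with a collagen gene and with Gbp2, Gbp5 and Irf1. Col1a1, the main fibrillar collagen of fibroblasts, had a UMI in 155 of 155 bleomycin and 106 of 107 saline members. That count stands without its value in Cxcl9-0 cells, so it does not separate fibroblasts from other mesenchymal cells. In the saline library 2 members lay in the smooth muscle-like cluster. Gbp2, a GTPase induced by interferon-gamma, was at 83 CPM in members and 32.1 CPM in Cxcl9-0 cells of the bleomycin library, a ratio of 2.58 [2.28–2.92]. In the saline library it was at 338 CPM in members and 112 CPM in Cxcl9-0 cells, a ratio of 3.02 [2.73–3.33]. Gbp5, which promotes inflammasome assembly, had ratios of 3.01 [2.14–4.13] in the bleomycin and 2.94 [2.36–3.62] in the saline library. Both genes were higher in members of both libraries. Irf1, a transcription factor and early interferon target, was not: members had 119.9 CPM against 140.3 CPM in Cxcl9-0 cells after bleomycin and 305 CPM against 377 CPM after saline, ratios of 0.855 [0.772–0.944] and 0.809 [0.73–0.894]. Irf1 therefore did not mark the set, and its GAS-bearing window is shown above for that contrast. The members varied: UMIs of all 3 were in 18 of 155 bleomycin and 28 of 107 saline members, and all 3 genes were at 0 UMIs in 25 of 155 bleomycin members and 5 of 107 saline members.

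The members were not 1 cell type but lay across the fibroblast classes of each lung, and those classes differed between the libraries. Clusters were named by marker lists. In the bleomycin library 85 members (54.8%) were in the fibrotic fibroblast-like cluster, led by Spp1, Thbs4 and Cthrc1, where 3.6% [2.89–4.43] of 2360 cells belonged to the set. A further 29 were in the inflammatory fibroblast-like cluster led by Saa3, Hp and Lcn2 (0.761% [0.51–1.09] of 3813 cells) and 25 in the proliferating-like cluster (4.21% [2.74–6.15] of 594 cells). The intervals of the fibrotic and the inflammatory class did not overlap, with median depths of 14962 and 11714 UMIs. The proliferating-like cells were deeper, at a median of 22156 UMIs. Alveolar fibroblast-like cells held 0 members of 282 after bleomycin, which allows a share of up to 1.06%.

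In the saline library the largest group of members lay in another class. Alveolar fibroblast-like clusters held 41 members (38.3%), only 0.733% [0.526–0.993] of their 5594 cells, and the adventitial fibroblast-like cluster held 14 of 1479 cells. In the proliferating-like cluster 6 of 51 saline cells were members, a share of 11.8% [4.44–23.9] where it was 4.21% in the bleomycin library. That cluster was deep, at a median of 17646 UMIs in saline cells against 6780 over all filtered saline cells. In the bleomycin library these medians were 22156 and 11744 UMIs. The rule counts UMIs, and the part of depth in these shares was not tested. A small interferon-responding-like cluster, led by Cxcl9, Rsad2 and Ifit3, held 37 of 92 saline cells (40.2% [30.1–51]) and 10 of 25 bleomycin cells. Since Cxcl9 leads that cluster, its share of members is set in part by the rule. With the interferon genes left out of the clustering, 58 saline members fell into a cluster of 2467 saline cells led by Tpm3-rs7 and Ch25h, and 97 bleomycin members into the fibrotic fibroblast-like cluster. Since the bleomycin library held 282 alveolar fibroblast-like cells and the saline library 7 fibrotic fibroblast-like cells, the place of members and the makeup of each library cannot be told apart.

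**Figure D1:**
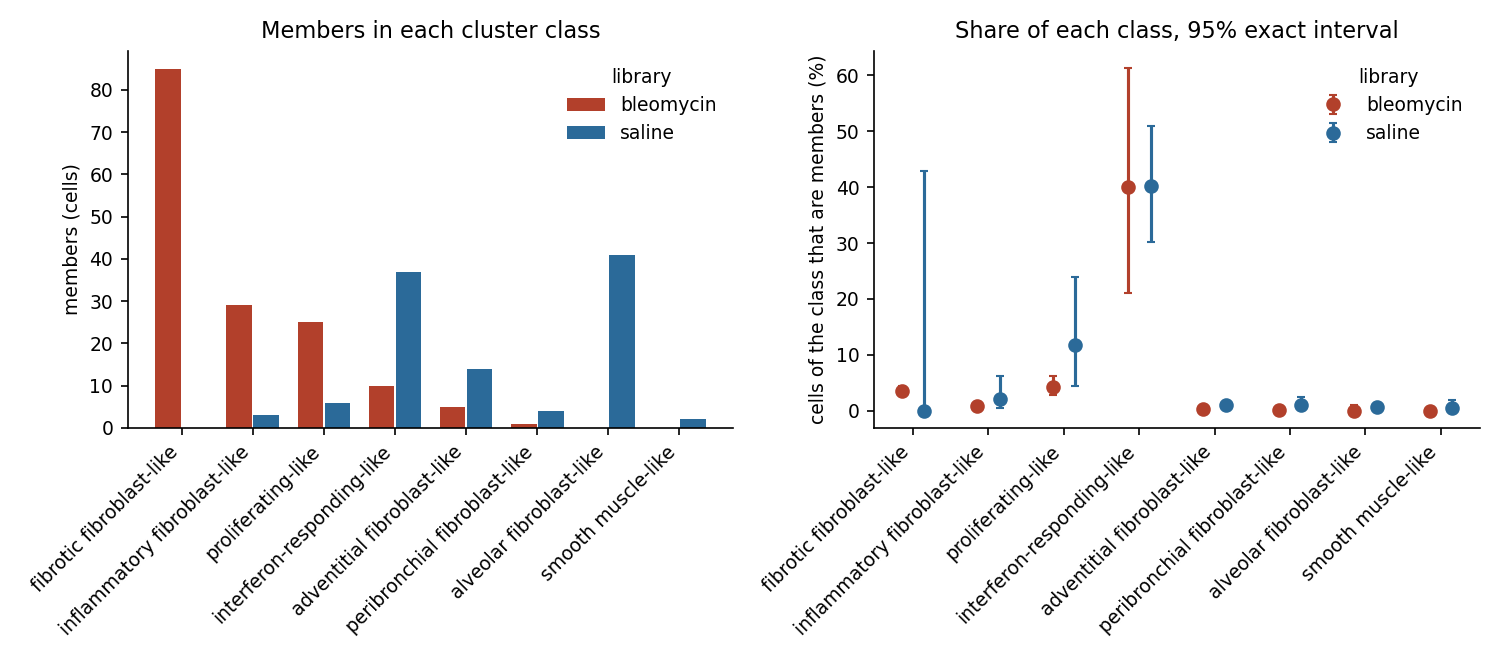
Members of the set in each cluster class. Left, number of members (cells) in the bleomycin and saline libraries; right, percent of the class's cells that are members, with exact 95% binomial intervals that cover counting error only (for 0 members, up to the share that 3 counts allow). The 85 bleomycin members in fibrotic fibroblast-like cells and the 41 saline members in alveolar fibroblast-like cells are the largest groups, and the interferon-responding-like cluster has the highest share in both libraries.

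Against Cxcl9-0 cells, 145 of 7827 genes were higher (1.85%) and 248 lower (3.17%) in bleomycin members, counting Cxcl9 itself. In saline members 359 of 8136 were higher (4.41%) and 352 lower (4.33%). In both libraries at once 63 of 7376 genes were higher (0.854%) and 94 lower (1.27%), and 8 went opposite ways in the 2 libraries (0.108%). Most of the 10 lowest were genes of mesothelial or epithelial cells, such as Msln, Upk3b, Krt18, Wfdc2 and Scgb1a1, and those clusters held 0 members in the main clustering. Alveolar epithelial-like clusters held 1 saline member at resolution 1, and 1 with the interferon genes left out of the clustering. The 20 highest genes included Cxcl10, Ccl5, Rsad2, Phf11b, Ifi47, Cmpk2, H2-Q7, Gbp6, H2-Q6, Igtp, Ifi44, Traf1, Gbp5, Bst2 and Slfn2, together with the replication genes Pclaf, Hist1h2ae and Hist1h1b and the homeobox gene Meox1. Hist1h1b in saline rested on 1 cell, with 90.9% of the UMIs, and had a ratio of 0.654 without it.

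Cxcl10, the other CXCR3 ligand in the gene table, was higher in members of both libraries. It was at 1100 CPM in members and 168 CPM in Cxcl9-0 cells of the bleomycin library, a ratio of 6.56 [6.33–6.79]. In the saline library it was at 1841 CPM in members against 225 CPM in Cxcl9-0 cells, a ratio of 8.2 [7.84–8.56]. Its RNA was not in every member at this depth: 94 of 155 bleomycin and 69 of 107 saline members held a UMI of it. At 2000 UMIs a cell, 33.5% of bleomycin members and 12.9% of bleomycin Cxcl9-0 cells had one, and 48.6% of saline members against 15% of saline Cxcl9-0 cells. Cxcl10 was thus detected more often in members at equal depth in both libraries. Ccl5, which attracts T cells, reached 461 CPM in bleomycin members against 5.42 CPM in Cxcl9-0 cells, but 1 cell held 92.5% of these UMIs. Without that cell the ratio fell to 6.44. Saline members had 122 CPM against 7.09 CPM in Cxcl9-0 cells, a ratio of 17.2 [14.2–20.8], or 11.7 without the cell with most.

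The GBPs were higher as a family. Of 10 in the table, 5 reached 10 CPM in the bleomycin library and all 5 were higher in members, with a median log2 ratio of 1.37 against -0.01 over all genes measured there. In the saline library all 10 reached it and were higher, at a median log2 ratio of 2.38 against -0.02 over all genes measured. Gbp2 and Gbp7 in the bleomycin library, and Gbp2, Gbp3, Gbp5, Gbp6 and Gbp7 in the saline library, reached 10 CPM in Cxcl9-0 cells as well. The others passed that floor through the members alone and could only be called higher. Gbp6 had the highest ratio of the 5 shared genes, 4.15 [3.38–5.06] in bleomycin and 6.76 [5.9–7.71] in saline members. Gbp7 had the smallest bleomycin ratio, 2.04 [1.68–2.45], and fell below 2-fold (1.92) without the member with most of its UMIs. The other 5 GBPs stayed low after bleomycin: Gbp4 was at 5.69 CPM in bleomycin members and 39.4 CPM in saline members. GBP genes are near-identical neighbours in places, so reads may be shared between them.

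IRGs were also mostly higher. In the bleomycin library 5 of 6 measured genes were higher in members, and in the saline library 6 of 7, with a median log2 ratio of 1.73 in the bleomycin and 1.35 in the saline library. Of the genes that reached 10 CPM in Cxcl9-0 cells as well, 1 of 2 in the bleomycin and 5 of 6 in the saline library were higher. Irgm1, Irgm2, Igtp and Ifi47 were higher in both. Igtp was at 27 CPM in members and 5.62 CPM in Cxcl9-0 cells after bleomycin (4.8 [3.81–5.98]), and at 85 and 22.8 CPM in the same pools after saline (3.73 [3.04–4.55]). Ifi47 had ratios of 4.63 [3.7–5.74] in bleomycin and 4.86 [3.84–6.08] in saline members. The annotated transcripts of Igtp and Irgm2 overlap on chromosome 11, so reads of that pair may be split or dropped and their values are uncertain.

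**Figure D2:**
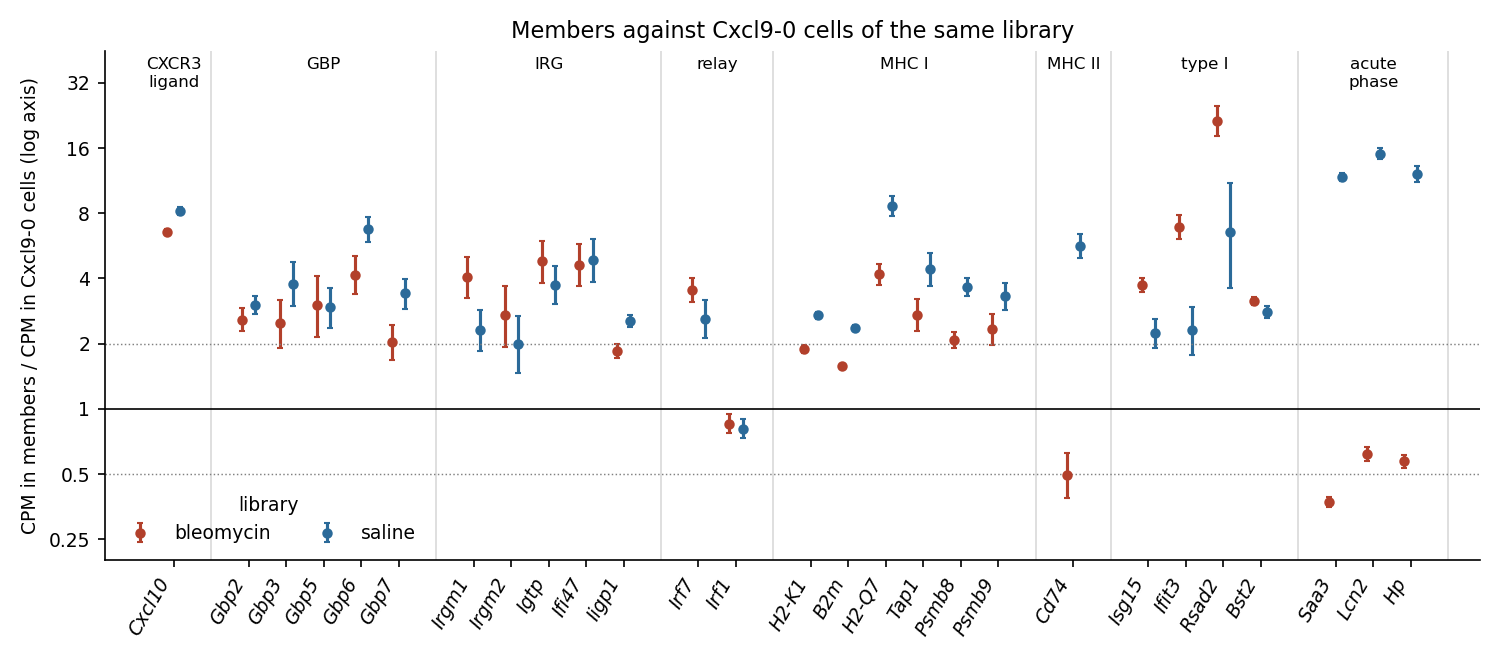
Ratio of CPM in members to CPM in Cxcl9-0 cells of the same library for 27 genes (log axis), grouped by role, with exact 95% intervals for counting error. The solid line marks equal levels and dotted lines 2-fold. GBP, IRG, MHC class I and type I interferon genes lie above 1 in both libraries and Irf1 below it, while Cd74, Saa3, Lcn2 and Hp lie below 1 in the bleomycin and above 1 in the saline library.

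The receptors and kinases that read interferon differed little. Of 6 measured genes, 0 were higher in bleomycin and 2 in saline members. Ifngr1, the binding chain of the interferon-gamma receptor, had ratios of 0.956 [0.864–1.06] and 0.893 [0.793–1], while its partner Ifngr2 had 0.926 [0.792–1.08] in bleomycin and 2.12 [1.71–2.61] in saline members. Irf7, a transcription factor that amplifies type I interferon output, was higher in both libraries (3.54 [3.11–4.01] and 2.6 [2.11–3.17]). Of the feedback inhibitors, Usp18, which dampens type I receptor signalling, was higher in both (3.37 [2.47–4.51] and 2.56 [1.38–4.37]), though under 10 CPM in Cxcl9-0 cells of both, and Socs1 in neither (1.28 [1.07–1.52] and 1.59 [1.3–1.94]). All 7 interferon genes on the ligand list were at 0 UMIs in members of both libraries. A count of 0 allows up to 0.899 CPM in bleomycin and 2.36 CPM in saline members.

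Antigen display genes are given by MHC class. For MHC class I and its peptide supply, 5 of 18 genes were higher in bleomycin and 15 of 18 in saline members, and 0 were lower in either, with a median log2 ratio of 0.68 in the bleomycin and 1.22 in the saline library. The 5 shared were H2-Q6, H2-Q7, the transporter Tap1 and the immunoproteasome subunits Psmb8 and Psmb9. H2-Q7 was at 101 CPM in members and 24.3 CPM in Cxcl9-0 cells after bleomycin (4.18 [3.72–4.67]), and at 339 and 39.2 CPM in the same pools after saline (8.65 [7.79–9.59]). H2-Q genes are close paralogs, and reads may be split among them. B2m, the shared light chain, was below 2-fold after bleomycin (1.57 [1.53–1.61]) and above it after saline (2.36 [2.29–2.43]).

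The class II values of the libraries stood apart, a difference that 1 library each cannot test. In the bleomycin library only Cd74, the invariant chain, reached 10 CPM, and it was lower, at 21.3 CPM in members and 43 CPM in Cxcl9-0 cells (0.495 [0.386–0.625]). That direction depended on which Cxcl9-0 cells were used: among them a cluster with immunoglobulin genes and Cd74 in its lead held 70 bleomycin cells. Against gated mesenchymal Cxcl9-0 cells, at 7.9 CPM, the bleomycin ratio was 2.69 [2.09–3.43]. In the saline library all 6 measured class II genes were higher in members, with a median log2 ratio of 2.42, and H2-DMa and H2-DMb1 passed the 10 CPM floor through members alone. Cd74 was at 208 CPM in saline members and 36.8 CPM in Cxcl9-0 cells (5.64 [4.95–6.42]), or 13.8 [12–15.9] against gated mesenchymal cells. H2-Ab1, a class II chain, was at 89.8 CPM in saline members against 11.7 CPM in Cxcl9-0 cells (7.67 [6.24–9.37]). Cd74 had a UMI in 24 of 155 bleomycin and 34 of 107 saline members. Ciita, the master switch of class II genes, was below 1 CPM in every pool.

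Type I interferon genes were higher in part. In bleomycin members 13 of 19 measured and in saline members 15 of 20 were higher, 10 of them in both, and 0 were lower, with a median log2 ratio of 1.62 in the bleomycin and 1.13 in the saline library. Of the genes at 10 CPM in Cxcl9-0 cells as well, 5 of 10 in the bleomycin and 10 of 14 in the saline library were higher. Isg15, a ubiquitin-like modifier, was at 252 CPM in members and 67.5 CPM in Cxcl9-0 cells after bleomycin (3.74 [3.48–4.01]) and at 136 and 60.8 CPM in the same pools after saline (2.24 [1.91–2.61]). Bst2, a membrane tether of virus particles, was broad, with a UMI in 149 of 155 bleomycin and 107 of 107 saline members and ratios of 3.14 [3.01–3.27] and 2.79 [2.62–2.97]. Rsad2, the antiviral enzyme viperin, was confined to few cells: 11 bleomycin and 4 saline members held it. Its ratios were 21.3 [18.3–24.9] after bleomycin and 6.52 [3.6–11] after saline, and 14.1 and 3.31 without the member with most. Ifit3 was likewise in 28 bleomycin and 22 saline members, and its saline ratio of 2.3 became 1.81 without the top cell.

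Members were then set against Cxcl9-0 cells of the same class, since classes differ in these genes. In bleomycin fibrotic fibroblast-like cells (85 members, 2194 Cxcl9-0 cells) Cxcl10 was at 573 CPM in members and 88.8 CPM in Cxcl9-0 cells, a ratio of 6.45 [6.01–6.91]. The summed GBPs there had a ratio of 2.52 [2.18–2.9], and in bleomycin inflammatory (29 members) and proliferating-like cells (25 members) 2.28 [1.82–2.82] and 2.37 [1.81–3.07]. In saline alveolar fibroblast-like cells (41 members, 5516 Cxcl9-0 cells) the GBP sum was at 532 CPM in members and 188 CPM in Cxcl9-0 cells (2.83 [2.46–3.24]), and Cxcl10 had a ratio of 6.59 [5.98–7.23]. The GBP and Cxcl10 differences were thus present within classes of both libraries. Class II genes summed to a ratio of 1.81 [1.35–2.38] in bleomycin fibrotic cells and 7.03 [5.77–8.48] in saline alveolar cells, above 1 in both.

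The interferon-responding-like cluster was the exception. There, 37 saline members and 52 Cxcl9-0 cells had like levels of Cxcl10 (3120.2 CPM in members and 3099.9 CPM in Cxcl9-0 cells, ratio 1.01 [0.933–1.09]), and the GBP sum had a ratio of 0.858 [0.774–0.95]. What set the members apart inside it was class II, at 760.1 CPM in members and 126 CPM in Cxcl9-0 cells (6.05 [4.53–8.22]), and less of the type I genes. Ifit3 was at 99.7 CPM in members and 693 CPM in Cxcl9-0 cells (0.144 [0.103–0.197]), Isg15 had a ratio of 0.274 [0.21–0.354] and Rsad2 of 0.136 [0.056–0.287]. Cxcl13, which attracts B cells, and Timp1, an inhibitor of matrix proteases, were higher in these members, with ratios of 7 [5.09–9.82] and 4.81 [4.36–5.32]. Interferon genes, Cxcl9 among them, were not left out of that clustering and were among the genes that led the cluster. When the Cxcl9-0 cells were weighted to the cluster makeup of the members, 3 interferon-list genes were higher in both libraries, against 28 with all Cxcl9-0 cells. Here and below, counts against weighted Cxcl9-0 cells were called by fold and the 10 CPM floor alone, without the interval. That is a laxer rule than the one behind the 28. Ratios in saline then fell below 1 for Gbp5 (0.724), Igtp (0.675) and Isg15 (0.518), among others. With clusters made without the interferon genes the same weighting gave 31, with Gbp2 at ratios of 3.89 in bleomycin and 2.83 in saline and Cxcl10 at 7.74 and 6.42. That clustering was chosen after the data were seen.

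**Figure D3:**
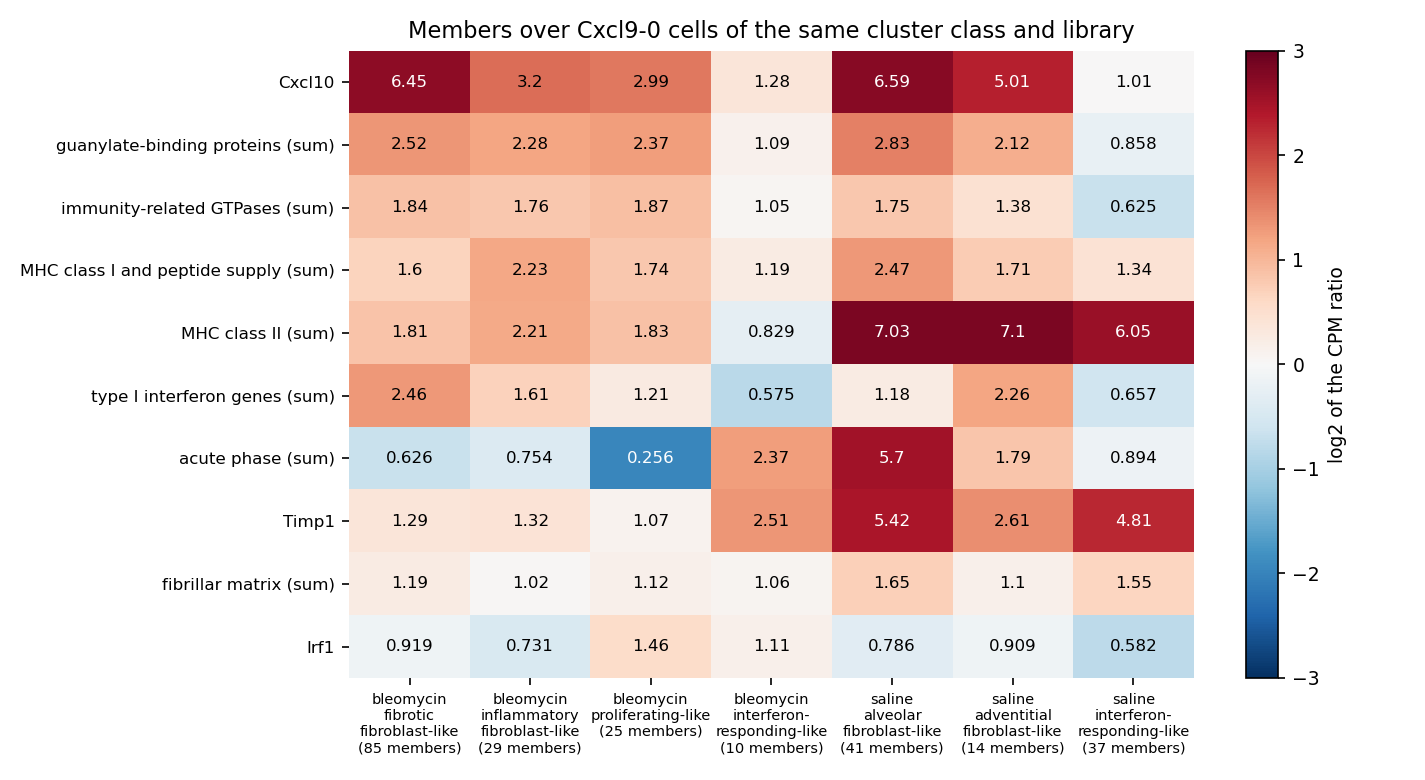
Ratios of CPM in members to CPM in Cxcl9-0 cells of the same cluster class and library (columns, with the number of members) for single genes and for summed gene lists (rows); color gives the log2 ratio. The GBP row runs from 2.12 to 2.83 outside the interferon-responding-like cluster and is 1.09 and 0.858 within it, while the class II row stays between 6.05 and 7.1 in the 3 saline classes.

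The cells on both sides of the rule's threshold differed between the libraries. Just outside it lay 135 bleomycin and 58 saline cells with 1 Cxcl9 UMI, and just inside 31 bleomycin and 15 saline members with exactly 2. In the bleomycin library the GBP sum was 75.7 CPM at 0, 64.6 at 1, 49.4 at 2, 176 at 3 to 9 and 353 CPM at 10 or more Cxcl9 UMIs. Cxcl10 there was 168, 246, 143, 967 and 1988 CPM over the same steps. Bleomycin members with 2 UMIs thus had no more GBP or Cxcl10 RNA than Cxcl9-0 cells, and these levels were above them at 3 or more. Other interferon genes were already above Cxcl9-0 cells at 2 UMIs: Bst2 was at 388 [344–436] CPM against 228 CPM, and Isg15 at 100.1 [78.4–126] CPM against 67.5 CPM. The 31 bleomycin members with 2 UMIs were deep, at a median of 20739 UMIs, and 19 of them were fibrotic fibroblast-like. In the saline library the GBP sum was 236, 371, 663, 780.1 and 1156 CPM, and Cxcl10 225, 385, 1709.5, 1192 and 2548 CPM, so saline members with 2 UMIs already lay above Cxcl9-0 cells.

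Among the 47 bleomycin and 46 saline members with 10 or more Cxcl9 UMIs, Cxcl10 and the GBP, IRG and class I sums were at their highest of these steps. Class I genes summed to 6188 CPM in the bleomycin and 13292 CPM in the saline members with 10 or more, against 2861 and 4913 CPM in Cxcl9-0 cells of the 2 libraries. The type I gene Rsad2 was at 64.4 and 153 CPM in bleomycin cells with 3 to 9 and with 10 or more UMIs, and at 24.2 and 3.6 CPM in the same steps after saline. Irf1 was at 146 CPM in bleomycin and 333 CPM in saline cells of the top step.

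**Figure D4:**
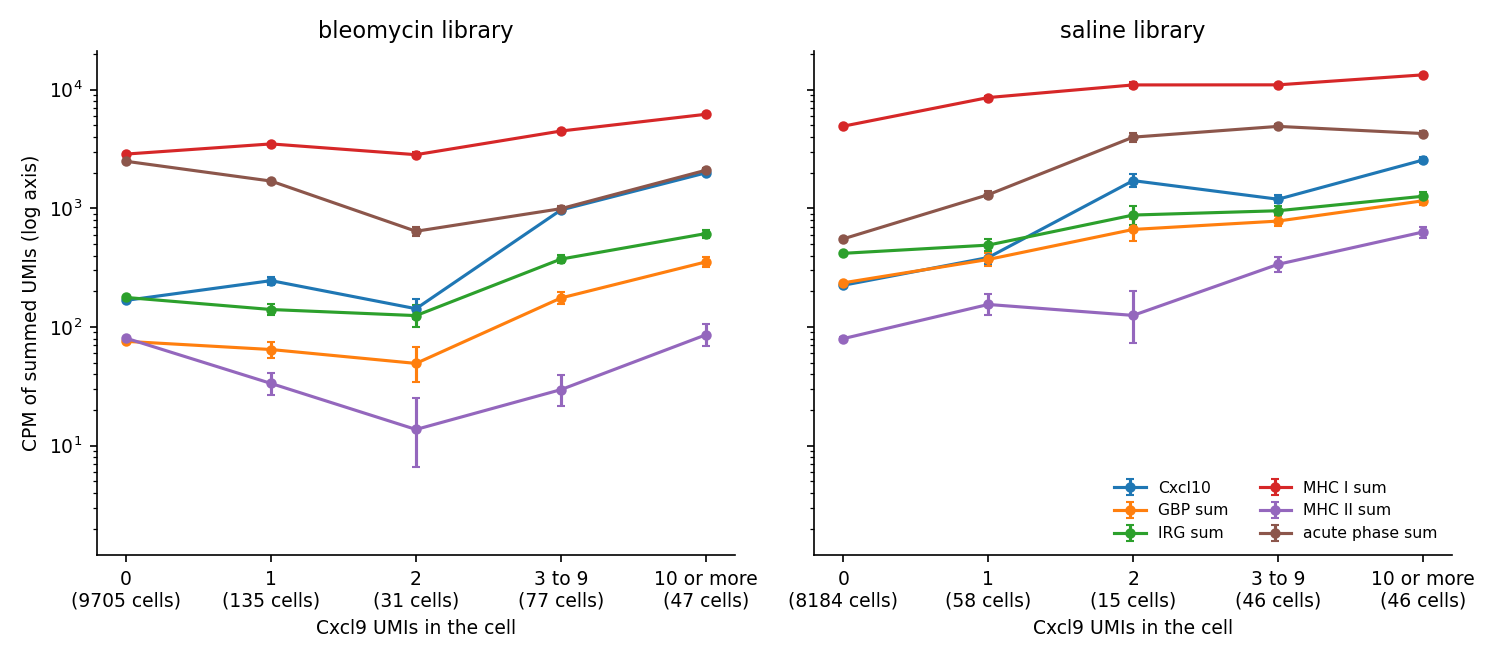
CPM of Cxcl10 and of summed gene lists (log axis) in cells grouped by their Cxcl9 UMIs, with the number of cells under each step, in the bleomycin (left) and saline (right) library; bars are exact 95% Poisson intervals for counting error. Bleomycin cells with 2 UMIs lie at or below the level of cells with 0 for GBP, IRG and Cxcl10, whereas saline cells with 2 lie above it.

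Beyond the interferon genes, the 2 libraries differed in which other inflammatory genes were higher or lower in members than in their own Cxcl9-0 cells. Those Cxcl9-0 pools differed too: inflammatory fibroblast-like cells made up 38.8% of the bleomycin and 1.63% of the saline pool. The part of this in the ratios was not tested. Of the acute phase list, 0 of 6 measured genes were higher and 1 lower in bleomycin members, and 5 of 6 were higher in saline members, with a median log2 ratio of -0.75 in the bleomycin and 3.31 in the saline library. Against the cluster-weighted Cxcl9-0 cells, 1 of 6 was higher in bleomycin members and 3 of 6 in saline members, and 0 were lower in either. The median log2 ratios were then -0.21 in the bleomycin and 0.76 in the saline library. Saa3, a serum amyloid protein, was at 363 CPM in bleomycin members and 977 CPM in bleomycin Cxcl9-0 cells (0.371 [0.351–0.393]). Saline members had 2358 CPM of it against 201 CPM in saline Cxcl9-0 cells (11.7 [11.3–12.2]). Lcn2, an iron-sequestering protein, had ratios of 0.619 [0.577–0.663] after bleomycin and 15.1 [14.2–16] after saline, and Hp, haptoglobin, of 0.574 [0.535–0.614] and 12.2 [11.1–13.3]. The saline excess came from a minority of members, since Saa3 was in 41 and Hp in 22 of 107. In bleomycin fibrotic fibroblast-like cells Saa3 had a ratio of 0.113 [0.0794–0.157], and in the inflammatory class of 0.656 [0.608–0.707].

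Chemokines and adhesion molecules for lymphocytes and monocytes followed the same division. In bleomycin members 2 of 14 measured genes were higher, Ccl5 and Cx3cl1, and 3 lower, and in saline members 9 of 13 were higher and 0 were lower; the list had a median log2 ratio of 0.10 in the bleomycin and 1.95 in the saline library. Both bleomycin genes were under 10 CPM in Cxcl9-0 cells, and of those at 10 CPM there 0 of 12 in the bleomycin and 7 of 11 in the saline library were higher. Against the cluster-weighted Cxcl9-0 cells, 3 of 14 were higher and 1 lower in bleomycin members, and 7 of 13 higher and 0 lower in saline members. Ccl2, which draws monocytes, had a bleomycin ratio of 1.17 [1.13–1.21], and in the saline library it was at 2539 CPM in members and 514 CPM in Cxcl9-0 cells (4.94 [4.76–5.12]). Ccl19, a ligand of CCR7 on T and dendritic cells, had ratios of 1.58 [1.41–1.75] after bleomycin and 5.32 [4.93–5.74] after saline, and Ccl11, the eosinophil attractant eotaxin, of 0.499 [0.418–0.591] and 4.93 [4.53–5.35]. Cxcl13 was at 24 CPM in bleomycin members and 109 CPM in bleomycin Cxcl9-0 cells (0.219 [0.173–0.273]). Saline cells had the other order, 347 CPM in members and 7.38 CPM in Cxcl9-0 cells (47.1 [41.1–53.9]), held by 18 of 107 members. Cd274, the T cell inhibitor PD-L1, was at 7.79 CPM in bleomycin members against 2.2 CPM in Cxcl9-0 cells, under the 10 CPM floor, and at 21.3 CPM in saline members against 3.41 CPM (6.24 [4.01–9.35]). Of the lymphocyte restraint list, 0 of 2 measured genes were higher in bleomycin and 1 of 3 in saline members, and Ido1 was at 0 UMIs in the members of both libraries.

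Some fibrosis genes were higher in bleomycin members. Of 12 fibrotic fibroblast markers, 3 were higher in bleomycin members: Cthrc1, a collagen-triple-helix protein of scar-forming fibroblasts, the BMP antagonist Grem1 and Lrrc15, the last under 10 CPM in Cxcl9-0 cells. Against the cluster-weighted Cxcl9-0 cells, 0 of 12 were. Cthrc1 was at 771 CPM in bleomycin members and 229 CPM in bleomycin Cxcl9-0 cells (3.37 [3.24–3.51]), with a UMI in 96 of 155. Saline members had 0 UMIs of it in 107 cells, which allows up to 2.36 CPM, against 0.61 CPM in saline Cxcl9-0 cells. Within the fibrotic class the bleomycin Cthrc1 ratio was 1.76 [1.68–1.84]. Fibrillar matrix genes differed little between members and Cxcl9-0 cells, with 1 of 18 higher in each library and a median log2 ratio of 0.38 in the bleomycin and 0.59 in the saline library. Col1a1 had ratios of 1.87 [1.85–1.9] and 1.52 [1.45–1.59]. In saline members 4 of 8 measured fibrotic markers were called higher, Spp1, Tnc, Fst and Ltbp2, but all Spp1 UMIs came from 1 cell. Timp1 had a ratio of 1.76 [1.74–1.79] after bleomycin and was higher in saline members, at 3532 CPM against 267 CPM in Cxcl9-0 cells (13.2 [12.8–13.7]). Timp1 is outside the fixed lists and was picked after its values were seen.

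Other inflammatory lists moved less. Of the NF-kB targets, 1 of 16 was higher in bleomycin and 5 of 17 in saline members, and Traf1, an adaptor of TNF receptors, was the 1 shared, with ratios of 3.02 [2.1–4.23] and 5.44 [3.09–9.02], but it was under 10 CPM in Cxcl9-0 cells of both libraries. Without such genes 0 of 15 in the bleomycin and 4 of 16 in the saline library were higher. Of the complement genes, 0 were higher and 3 of 9 lower in bleomycin members, while 2 of 9 were higher in saline members. Against the cluster-weighted Cxcl9-0 cells, 0 of 9 were higher or lower in bleomycin members, and 1 of 9 was higher in saline members. C3, the central complement protein, was at 529 CPM in bleomycin members against 811 CPM in Cxcl9-0 cells (0.653 [0.623–0.684]), and at 3698 CPM in saline members against 1013 CPM (3.65 [3.54–3.76]). Of the cell death sensors, 1 of 6 was higher in bleomycin and 1 of 5 in saline members, and of the lipid handling genes 1 of 5 and 2 of 7 were lower. Zbp1, which senses Z-form nucleic acid, was the cell death sensor higher in both libraries, at 71.9 CPM in bleomycin members against 29.9 CPM in Cxcl9-0 cells and 104 CPM in saline members against 15.2 CPM.

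Alveolar fibroblast markers were lower in both libraries, 5 of 10 measured in bleomycin and 6 of 12 in saline members, and 0 were higher. Against the same cells weighted to the members' clusters, 1 of 10 and 3 of 12 were lower, and with clusters made without interferon genes 1 and 1. Inmt, a methyltransferase abundant in alveolar fibroblasts, was at 79.1 CPM in members and 397 CPM in Cxcl9-0 cells after bleomycin (0.199 [0.176–0.225]), and at 785 CPM against 2918 CPM after saline (0.269 [0.253–0.286]). Within saline alveolar fibroblast-like cells its ratio was 0.385 [0.355–0.417], so Inmt was lower inside the class as well. Lepr, whose promoter drives the Cre, was at 4.49 CPM in bleomycin members and 11.4 CPM in Cxcl9-0 cells (0.394 [0.22–0.652]), and at 47.2 and 62 CPM in the same saline pools (0.762 [0.581–0.984]). Lepr is outside the fixed lists as well. Proliferation markers were higher in 6 of 10 measured genes in bleomycin members and 9 of 9 in saline members. Against Cxcl9-0 cells weighted to the cluster makeup of the members, 0 of 10 were higher in bleomycin members, and 0 were higher and 5 of 10 lower in saline members, at a median log2 ratio of -0.92. Of the 9 saline genes, 8 were under 10 CPM in Cxcl9-0 cells, and Top2a rested on 8 cells.

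Markers of the remaining classes, leukocytes aside, were mostly lower in members or not called, apart from those of inflammatory fibroblasts. Smooth muscle markers were lower in 5 of 9 genes in each library, pericyte markers in 2 of 7 genes in bleomycin and 1 of 5 in saline members, and peribronchial fibroblast markers in 3 of 6 and 1 of 5. All 5 measured mesothelial markers were lower in both libraries, as were 7 of 7 alveolar epithelial markers in bleomycin and 4 of 5 in saline members, and 1 of 1 and 2 of 2 airway epithelial markers. The rule on Epcam and the mesothelial and epithelial clusters among Cxcl9-0 cells bear on those directions: against gated mesenchymal Cxcl9-0 cells, 1 of 2 alveolar epithelial markers was lower in bleomycin members, and 2 of 4 were higher and 1 lower in saline members, at a median log2 ratio of 1.21. Adventitial fibroblast markers were lower in 5 of 10 genes in bleomycin members (1 of 9 against the cluster-weighted cells), and in saline members 2 of 11 were higher and 2 lower. Of the inflammatory fibroblast markers, which overlap the acute phase list, 1 of 10 was lower in bleomycin members and 7 of 11 were higher in saline members (4 against the cluster-weighted cells). The 1 measured Schwann cell marker was not called.

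**Figure D5:**
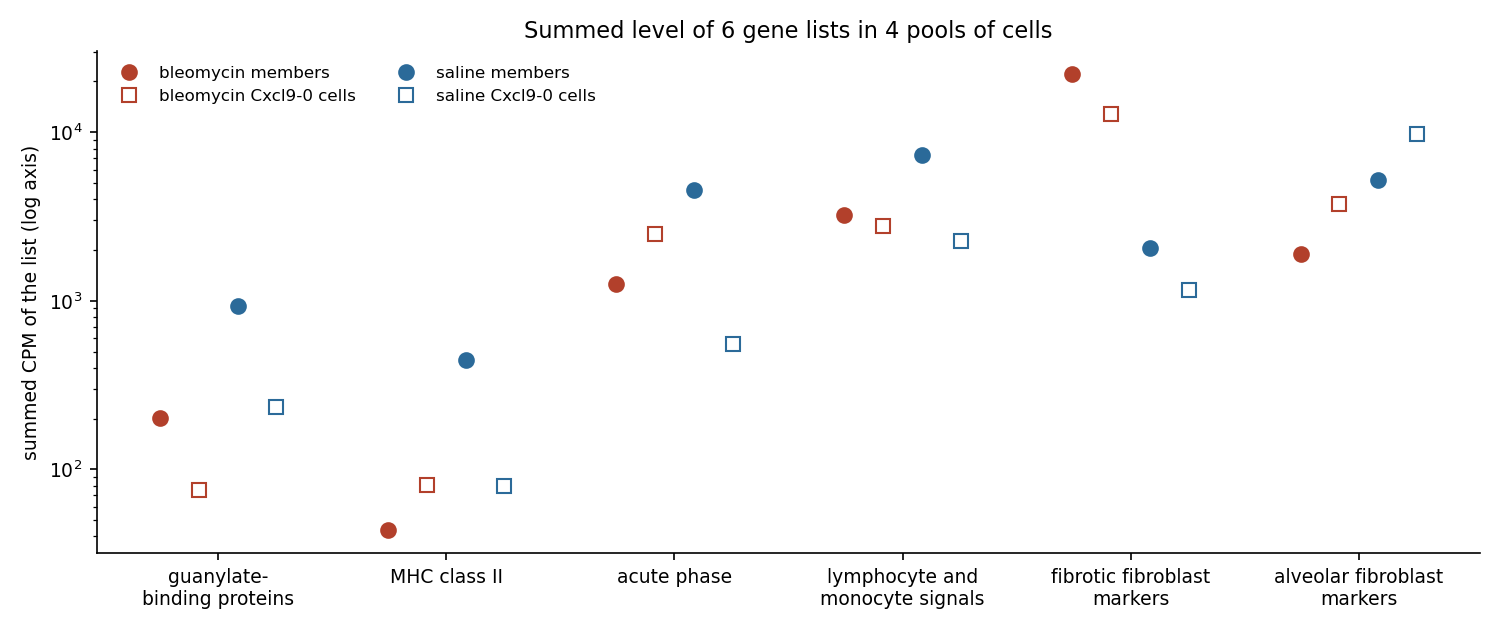
Summed CPM (log axis) of 6 gene lists in bleomycin members, bleomycin Cxcl9-0 cells, saline members and saline Cxcl9-0 cells; each point is 1 pool of cells and has no replicate error. The GBP list lies higher in members of both libraries, the acute phase and class II lists in saline members only in this comparison with all Cxcl9-0 cells, and the alveolar fibroblast markers lower in members of both libraries.

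Bleomycin and saline members were then compared directly. Of 8170 genes, 565 were higher (6.92%) and 749 lower (9.17%) in bleomycin members, against 444 (5.49%) and 464 (5.73%) of 8094 in Cxcl9-0 cells of the same libraries. Interferon-gamma genes were at lower levels in bleomycin members: all 10 GBPs, 6 of 7 IRGs, 14 of 18 class I genes and 6 of 6 class II genes were lower, and 0 were higher. Over genes at 10 CPM in both member pools, which could be called either way, 5 of 5 GBPs, 5 of 6 IRGs, 14 of 18 class I genes and 1 of 1 class II gene were lower. The rule counts UMIs, and bleomycin members were deeper, so it admitted bleomycin cells at a lower Cxcl9 level. Scaled within each cell, the median Cxcl9 level was 281 CPM in bleomycin and 736 CPM in saline members. The part of this in the lower levels was not tested. Gbp2 had a bleomycin to saline ratio of 0.246 [0.21–0.286] in members and 0.287 in Cxcl9-0 cells, so the lower level was found in both kinds of cell. Cd74 had 0.102 [0.0776–0.133] in members and 1.17 in Cxcl9-0 cells. Of the type I genes, 4 of 21 were higher and 1 lower. Cxcl10 had 0.597 [0.567–0.63] in members, short of 2-fold.

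Genes at 0 UMIs in saline members have no finite ratio, so they tied as highest in bleomycin over saline members. The 10 taken from that tie were Col11a1, Sfn, Tnnt2, Inhbb, Tnn, Grem1, 4833422C13Rik, Thy1, Tmem178 and Fbn2. Cthrc1 was in the same tie but not among the 10, so they are not a ranking by size. Grem1 was at 80.9 CPM in bleomycin members and at 39.7 CPM in bleomycin Cxcl9-0 cells, and the fibrillar collagen Col11a1 at 23.7 and 9.12 CPM. Among Cxcl9-0 cells the bleomycin to saline ratios of these 10 genes were also above 2, the smallest being 2.23 for Tnnt2. The 10 lowest were Col17a1, Slc7a10, Ubd, Gm15056, Zbtb16, Tpm3-rs7, Cyp2e1, Cxcl3, Gria1 and Retnla. Ubd, a ubiquitin-like protein induced by interferon-gamma and TNF, was at 0.3 CPM in bleomycin members (1 UMI) and 23.6 CPM in saline members, where 12 cells held it and Cxcl9-0 cells had 0.322 CPM (73.3 [39.9–138]). Cxcl3, Cyp2e1 and Retnla rested on 1 saline cell with 89.5%, 84.2% and 77.8% of their UMIs. Tpm3-rs7 and Slc7a10 were lower after bleomycin in Cxcl9-0 cells too, with ratios of 0.0186 and 0.0773.

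Apart from Plac8 of the dendritic or monocyte list, defining markers of leukocytes were low in the set, which the sort and the rule on Ptprc both bear on. T cell markers summed to 0.899 CPM in bleomycin members and 6.65 CPM in bleomycin Cxcl9-0 cells, and to 0.787 and 4.44 CPM in the same saline pools, with 6 and 8 of 9 genes at 0 UMIs in bleomycin and saline members. All 7 NK markers were at 0 in both. Macrophage markers summed to 11.7 CPM in bleomycin members and 81.1 CPM in bleomycin Cxcl9-0 cells, and 15.7 CPM in saline members and 53.2 CPM in saline Cxcl9-0 cells, with Marco, Fcgr1, Chil3 and Ear2 at 0 in the members of both. Dendritic or monocyte markers summed to 199 CPM in bleomycin members and 180 CPM in bleomycin Cxcl9-0 cells. In the same saline pools they summed to 183 and 72.4 CPM. Nearly all of the member sums was Plac8, the 1 measured marker, which was higher in saline members and not called in bleomycin members. On this list 6 and 7 of 8 genes were at 0 in bleomycin and saline members, Flt3, Xcr1 and Clec9a among them. B or plasma cell markers summed to 26.7 CPM in bleomycin members and 600.1 CPM in bleomycin Cxcl9-0 cells, and 73.2 CPM in saline members and 205 CPM in saline Cxcl9-0 cells. Against gated mesenchymal Cxcl9-0 cells the 1 measured B or plasma cell marker, the immunoglobulin chain Igkc, was lower in bleomycin and higher in saline members, at log2 ratios of -1.01 and 2.06, and 88% of its saline UMIs were in 1 cell. B cells express class II genes, and their part in the class II result was not tested. For neutrophil markers, 1 of which was measured and higher in bleomycin members, the sums were 16.5 CPM in bleomycin members and 17.3 CPM in bleomycin Cxcl9-0 cells, and 1.57 CPM in saline members and 1.2 CPM in saline Cxcl9-0 cells, and for endothelial markers 102 CPM in bleomycin members and 88 CPM in bleomycin Cxcl9-0 cells, and 55.1 CPM in saline members and 44.1 CPM in saline Cxcl9-0 cells. Dissociation stress genes were not higher in members, with 0 of 12 called higher in either library.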

How the data were processed

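The deposited files were matrices of UMI counts per gene and cell barcode for 32285 features, 1 for each library, made from 3′ droplet libraries with Cell Ranger 6.1.2 on mm10, per the submitters' processing notes. The authors' counts were used unnormalized. Cells with at least 500 genes and at most 10% mitochondrial UMIs were kept: 10001 of 10138 bleomycin and 8350 of 8396 saline barcodes, with 134589942 and 60901281 UMIs. UMIs were summed over members and over Cxcl9-0 cells of each library. Ratios of CPM carry exact conditional binomial intervals, CPM exact Poisson intervals and shares Clopper-Pearson intervals, all at 95% (scipy 1.17.1, numpy 2.4.6). A gene was measured in a comparison where it had 10 CPM in either pool. For equal depth every cell was thinned to 2000 UMIs. A count of 0 was read as allowing 3 counts.

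Cells of both libraries were clustered together after scaling to 10000 counts (scanpy 1.11.5, igraph 0.11.9, scikit-learn 1.9.0) on 2000 variable genes, 30 principal components and 15 neighbours, by Leiden at resolution 0.5, with no batch correction. A cluster was called like a cell type where at least 3 of that type's markers were 1.5-fold raised and 1 or more was among its 10 leading genes. Scrublet ran with 7% expected doublets and removed no cell. Genes named were those of 19 gene lists and 20 marker lists, the 20 highest and 10 lowest genes shared by both libraries, and the 10 highest and 10 lowest of bleomycin against saline members. Genes at 0 UMIs in saline members tied for highest there. Members and lists were chosen with earlier results of these data known. Alternatives changed the Cxcl9 threshold, the cell filter, the gate, depth, the CPM floor, the fold, the comparison cells and the clustering. Promoter windows came from RefSeq, and Ccl5 had none. Gene positions came from GENCODE, and 32235 of 32285 identifiers matched. Cxcl11, Gbp11, Gm12250, Mx1 and Mx2 were not among the genes of the table used here. Ccl19 appears more than once in the table, and its first entry was used. Some named items are not reported here. The steps were checked on simulated data with known differences.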

Additional observations from a re-analysis of the deposited data

Results flagged for a closer look

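Of 7376 genes measured in both libraries, 8 (0.108%) were at least 2-fold apart between members and Cxcl9-0 cells in opposite directions in the 2 libraries. With 1 library each, that difference was not tested. The ratios of members to Cxcl9-0 cells of genes lower in bleomycin and higher in saline members were as follows. Saa3 had 0.371 in the bleomycin and 11.7 in the saline library, and Cxcl13 had 0.219 in the bleomycin and 47.1 in the saline library. For Cd74 they were 0.495 in the bleomycin and 5.64 in the saline library, for Ccl11 0.499 in the bleomycin and 4.93 in the saline library, for Srgn, a proteoglycan of secretory granules, 0.5 in the bleomycin and 3.31 in the saline library, and for Procr, the protein C receptor, 0.238 in the bleomycin and 2.08 in the saline library. The opposite held for S100a4, a calcium-binding protein, with 2.01 in the bleomycin and 0.488 in the saline library, and for Prkg2, a cGMP-dependent kinase, with 2.01 in the bleomycin and 0.48 in the saline library. Prkg2, S100a4, Procr and bleomycin Srgn and Ccl11 lay close to the 2-fold limit in at least 1 library. Procr, S100a4, Prkg2 and Srgn are outside the gene lists and are named for this difference alone.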

How the results depend on the processing

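Of 1925 ratios recomputed for 54 named genes under 18 alternatives, 1346 stayed within the main counting interval, 554 left it without a called direction being reversed, and 25 reversed. The floors of 5 and 20 CPM and the limits of 1.5-fold and 3-fold changed only the calling and could not move a ratio. All 107 ratios under each of these are therefore among the 1346 by construction and say nothing about stability. Members numbered 2.9% of bleomycin and 1.98% of saline cells at 1 or more Cxcl9 UMIs, 1.24% of bleomycin cells at 3 or more, 0.47% and 0.551% at 10 or more, 0.429% and 0.622% at 2000 UMIs a cell, and 0.946% of saline cells without the 5% deepest. Against 63 genes higher and 94 lower in both libraries, there were 31 and 61 at 1 or more UMIs, 145 lower at 10 or more, 62 lower at 2000 UMIs a cell, 112 and 156 at a 5 CPM floor, 37 and 55 at 20 CPM, 177 and 289 at 1.5-fold, 15 and 42 at 3-fold, 38 and 46 against Cxcl9-0 cells of matched depth, 9 and 6 against the cluster mixture, and 9 lower with clusters made without interferon genes. Against 565 genes higher and 749 lower in bleomycin than in saline members, there were 369 and 466 at 2000 UMIs, 483 lower at 20 CPM, 984 and 1346 at 1.5-fold, and 275 and 295 at 3-fold. The 28 interferon-list genes higher in both libraries became 10 at 1 or more UMIs, 18 at 2000 UMIs, 9 at 3-fold and 3 against the cluster mixture, which calls by fold alone. Of saline members, 54.2% lay in clusters named interferon-responding-like and 11.2% in alveolar fibroblast-like ones when interferon genes were left out of the clustering; that cluster holds 29.5% of saline cells, is led by Tpm3-rs7 and has 1 interferon and 1 alveolar marker among its 10 leading genes, so its name is uncertain. The shares were 52.3% and 21.5% at resolution 1. Bleomycin Cd74 turned to 2.01 without the gate on leukocyte, endothelial and epithelial genes, 2.69 against mesenchymal cells, and 3.09 and 3.12 against the mixtures with and without interferon genes in the clustering. Saline Spp1 and Top2a were at 0 without the 5% deepest cells, and bleomycin Ccl11 was 1.2 at 10 or more UMIs. Against the cluster mixture the saline ratios Gbp5 0.724, Gbp7 0.934, Irgm1 0.698, Irgm2 0.912, Igtp 0.675, Ifi47 0.828, Irf7 0.952, Isg15 0.518, Ifit3 0.208, Rsad2 0.263, Cxcl5 0.634, Top2a 0.842, Usp18 0.349 and the bleomycin ratios Ifit3 0.786, Srgn 1.35, Usp18 0.904 were reversed. With interferon genes left out of the clustering saline Top2a (0.847), bleomycin Srgn (1.15) reversed. The 10-UMI threshold, the values without the member holding most UMIs and the mixture from clusters without interferon genes were chosen after seeing the data. The cause of these changes was not tested. No paired analysis was possible because each treatment has 1 library and the labels carry no replicate numbers. With 1 library per treatment no interval covers the spread between mice, and genes under the chosen floor of 10 CPM were not called.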
